A study of Mus musculus with 6 samples.

Results

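The proteins of the cytosolic ribosome were followed in cells sorted from the sagittal suture of the mouse skull. Members were all genes read by an array feature that carries exactly 1 gene symbol, where that symbol begins with Rpl, Rps, Rplp or Rpsp and a digit, leaving out the Rps6 kinases and pseudogene symbols. This gave 62 of 19938 genes, read by 214 of 21789 features. Of the members, 33 encode proteins of the large subunit, 20 encode proteins of the small subunit, and 9 carry related symbols, mostly paralogues. A further 23 ribosomal protein genes had no feature of their own, and 16 of these shared features with other symbols, so they are not among the members. For a gene with several features, the feature with the highest mean over all 6 samples was used.

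The arrays hold 3 samples of Axin2+/GFP+ cells and 3 of Axin2-/GFP- cells. All mice carried 2 transgenes, Axin2rtTA, in which Axin2 regulatory sequence drives a doxycycline-dependent activator, and TRE-H2BGFP, a histone-GFP fusion that this activator switches on. The strain background was mixed, of C57BL/6J, CD-1 and B6CBAF2. Both populations came from the same kind of mouse, which received doxycycline between postnatal day 25 and postnatal day 28, and each sample was a pool of 6 to 8 animals at day 28. Suture tissue was digested with collagenase and the cells were divided by GFP intensity alone, with no antibody against blood cells named for this sort. GFP thus reports recent Axin2 promoter activity and not a lineage. Expression is given as the deposited log2 value, and a log2 change is the Axin2+/GFP+ mean minus the Axin2-/GFP- mean.

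The cytosolic ribosome translates nuclear messenger RNAs and is built from ribosomal RNAs and one copy of nearly every ribosomal protein. Messenger RNAs of ribosomal proteins are abundant in growing cells, and most begin with a cytosine followed by a run of pyrimidines, the terminal oligopyrimidine (TOP) tract, through which mTOR signalling and LARP1 set their translation. Loss of 1 copy of several of these genes causes Diamond-Blackfan anaemia in people, and mice with reduced Rpl38 or Rpl24 have skeletal patterning defects.

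Sequence around the annotated transcription start, from RefSeq (build GRCm38.p6), was given for 50 of the 62 members. The windows run from 15 bases before the start, so that base 16 is the annotated first base, and capitals mark the longest run of pyrimidines. The first 9 are shown because they are the subunit genes that have a C followed by 4 more pyrimidines exactly at the annotated start, and the last 3 because Rps27l, Rpl10a and Rps4x were among the members with the greatest falls.
Rpl14 (chr9:120571502-120571531, plus strand): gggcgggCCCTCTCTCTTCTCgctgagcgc
Rpl28 (chr7:4792950-4792979, plus strand): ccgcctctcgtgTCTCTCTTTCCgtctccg
Rpl38 (chr11:114668565-114668594, plus strand): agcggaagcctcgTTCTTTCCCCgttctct
Rplp2 (chr7:141447636-141447665, plus strand): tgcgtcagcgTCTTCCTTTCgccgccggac
Rps10 (chr17:27635230-27635259, minus strand): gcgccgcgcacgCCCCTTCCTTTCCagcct
Rps15a (chr7:118116133-118116162, minus strand): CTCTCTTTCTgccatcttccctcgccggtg
Rps18 (chr17:33955651-33955680, minus strand): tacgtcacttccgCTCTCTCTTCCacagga
Rps21 (chr2:180257364-180257393, plus strand, the first of 2 entries): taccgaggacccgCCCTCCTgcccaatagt
Rps6 (chr4:86857353-86857382, minus strand): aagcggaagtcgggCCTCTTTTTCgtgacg
Rps27l (chr9:66946071-66946100, plus strand, the first of 2 entries): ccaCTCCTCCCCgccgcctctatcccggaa
Rpl10a (chr17:28328456-28328485, plus strand, the first of 2 entries): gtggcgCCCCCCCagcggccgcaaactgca
Rps4x (chrX:102189377-102189406, minus strand): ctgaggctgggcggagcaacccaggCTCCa

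Of the 42 members of the 2 subunits with such an entry, 9 (21.4%) had a C followed by 4 pyrimidines at the annotated start, against 3.01% of the 27025 genes listed. A run of 6 or more pyrimidines anywhere in the 30-base window was found in 23 of 42 (54.8%), against 32.7% of all genes. In the promoter window, from 250 bases before to 50 after the start and on either strand, the ETS-factor core CGGAAG was found in 30 of 42 (71.4%), against 18.8% of all genes. The same search found TATAAA in 5 of 42 (11.9%), against 15.7%, and AAGATGGC, the core bound by YY1, in 2 of 42 (4.76%), against 3.19%. These are letter matches beside annotated starts, which can lie several bases from the start used in these cells. Of these 9 genes all but Rpl14 were called lower in Axin2+/GFP+ cells by limma, a share close to the 86.8% of all subunit members called lower. Among the related symbols Rpl32l also had a C and 4 pyrimidines at its start.

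Transcripts of blood cells were measured in both populations beside those of mesenchyme. Axin2 itself read 2.89, 2.54 and 3.07 in Axin2+/GFP+ cells and 2.18, 2.27 and 2.38 in Axin2-/GFP- cells, which is a log2 change of 0.55 (standard error, SE, of 0.19, limma adjusted p = 0.0802) without overlap. All 12 measured markers of the B lineage were lower in Axin2+/GFP+ cells, with a median log2 change of -4.40 and a summed level of 6.57 to 6.69 against 10.79 to 11.24 in Axin2-/GFP- cells. Of 15 neutrophil markers 13 were higher in Axin2+/GFP+ cells, with summed levels of 14.43 to 14.53 against 11.64 to 13.31. Of 10 mesenchyme and bone markers 4 were higher, Col1a1, Col1a2, Col3a1 and Ibsp, with summed levels of 11.28 to 11.77 against 9.51 to 9.98, while Prrx1, Twist1 and Pdgfra were not called. Over all genes 4.64% were called higher and 11.4% lower in Axin2+/GFP+ cells. Of erythroid markers 1 was higher and 2 lower of 6, and of the markers of macrophages, T and NK cells and endothelium 1 of 8 was lower in each list, which is near the share over all genes. No marker was at 0, since the olfactory and vomeronasal receptor genes, taken as a floor, had sample medians between 1.43 and 1.83. The lowest marker means lay near this floor, at 1.88 for macrophages, 2.04 for T and NK cells, 1.86 for endothelium and 1.95 for mesenchyme and bone. Markers at such levels give little information on a change. In such bulk samples fewer cells of a type and less RNA per cell cannot be told apart, and the part of the blood cells in the ribosomal protein result was not tested.

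Ribosomal protein transcripts were lower in Axin2+/GFP+ cells as a family. The 33 large subunit genes had a median log2 value of 8.26, 8.12 and 8.18 in Axin2+/GFP+ cells and of 9.44, 9.36 and 9.31 in Axin2-/GFP- cells. The 20 small subunit genes had medians of 8.57, 8.57 and 8.73 against 9.83, 9.72 and 9.77. In both subunits every Axin2+/GFP+ median lay below every Axin2-/GFP- median.

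With limma and Benjamini-Hochberg adjustment over all genes at 0.05, 48 of the 62 members were called lower, where 11.4% of all genes were, and 0 were called higher, where 4.64% of all genes were. No member was higher at an unadjusted p under 0.05 in limma (16.3% of all genes were), and none by the study's own two-sided test without moderation (called the methods' test here), which called 49 lower at p under 0.05 (13.8% of all genes). The called members comprised 28 of 33 large subunit genes, 18 of 20 small subunit genes and 2 of the 9 related symbols. The median log2 change was -1.07 for the large subunit (quartiles -1.32 and -0.89), -1.12 for the small subunit (quartiles -1.33 and -0.91) and -0.08 for the related symbols, against 0.14 over all genes. In 54 of 62 members the 3 Axin2+/GFP+ values all lay below the 3 Axin2-/GFP- values, as they did in 17.8% of all genes. This held for 31 large subunit genes, all 20 small subunit genes and 3 related symbols.

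The number of calls depended on the scaling, the test and the samples. After quantile normalization 18 members were called lower, where 6.35% of all genes were. Cyclic loess left 11 (7.36% of all genes), the methods' test with Benjamini-Hochberg adjustment 17 (2.6%) and the omission of Axin2-/GFP- replicate 1 left 29 (6.9%), with 0 higher in each. The values differed among Axin2+/GFP+ samples more than among Axin2-/GFP- samples, with a median SD over members of 0.28 and 0.12 (n = 3 each), against 0.26 and 0.19 over all genes.

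**Figure D1:**
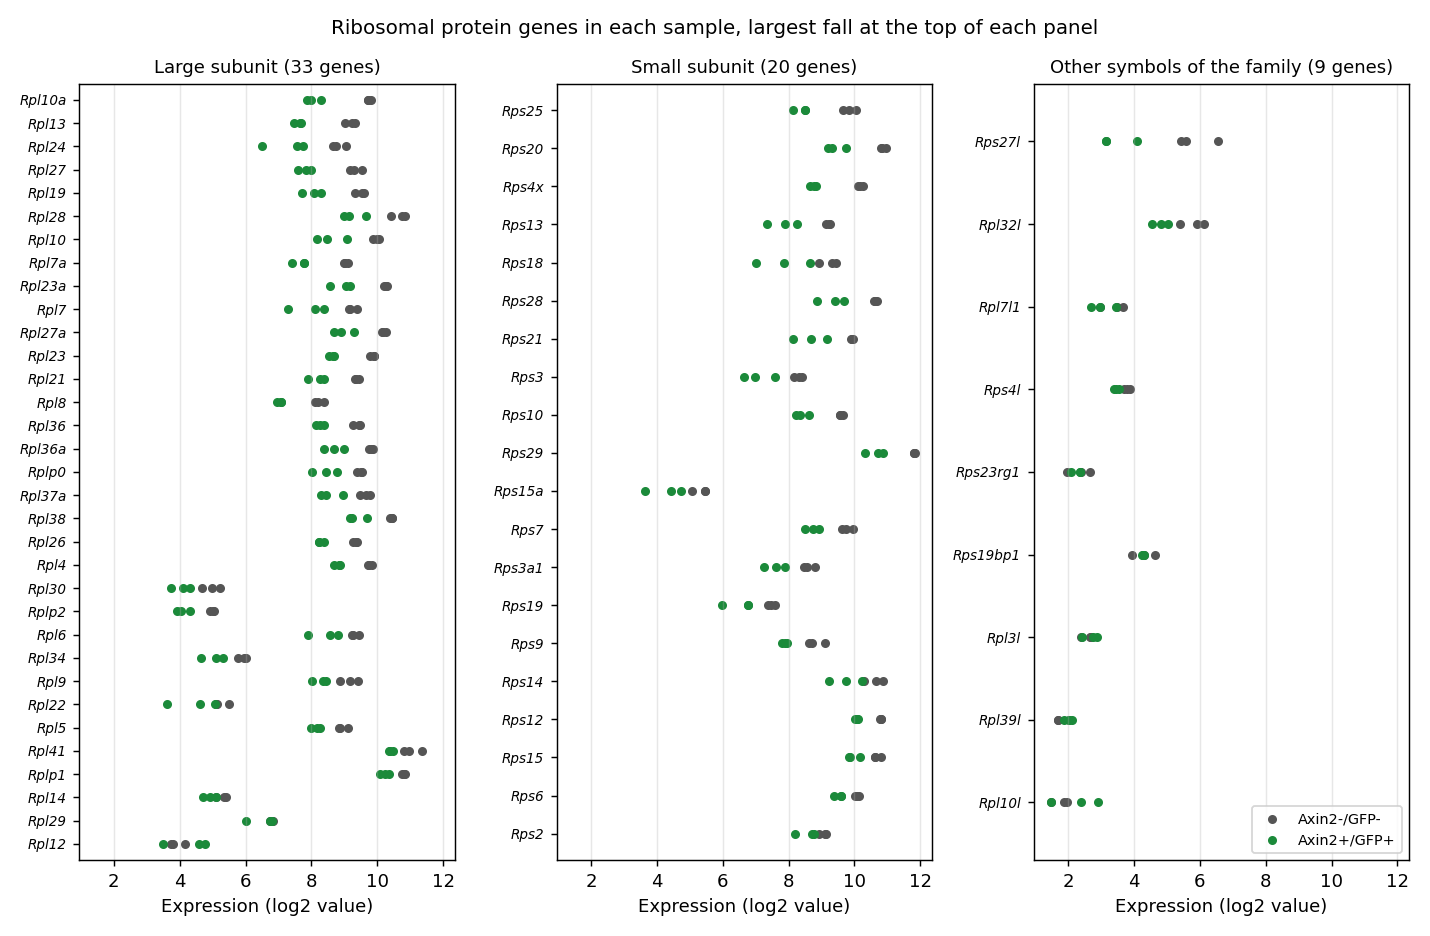
Each row is 1 member and each point 1 sample, with the deposited log2 value on the horizontal axis, green for Axin2+/GFP+ and grey for Axin2-/GFP-, in panels for the large subunit, the small subunit and the related symbols. Green points lie left of grey points without overlap in 31 of 33, 20 of 20 and 3 of 9 rows.

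Among large subunit genes the greatest fall was in Rpl10a, which encodes a protein near the exit site of the transfer RNA. Rpl10a had log2 values of 8.29, 7.99 and 7.86 in Axin2+/GFP+ and 9.71, 9.81 and 9.70 in Axin2-/GFP- cells. The difference was -1.69 (SE 0.18, limma adjusted p = 0.000687), a 3.23-fold lower level, with the lowest Axin2-/GFP- sample well above the highest Axin2+/GFP+ sample. Rpl13, a constituent of the large subunit surface, read 7.67, 7.67 and 7.47 against 9.33, 9.23 and 9.01, a log2 change of -1.59 (SE 0.17, limma adjusted p = 0.000782). No Axin2+/GFP+ sample of Rpl13 came near an Axin2-/GFP- sample. Rpl24, which forms a bridge between the subunits, read 7.57, 7.75 and 6.49 against 9.05, 8.65 and 8.74. Its log2 change of -1.54 had an SE of 0.32 (limma adjusted p = 0.0137), because Axin2+/GFP+ replicate 3 lay well below the other replicates.

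In the small subunit the greatest falls were in Rps25, Rps20 and Rps4x. Rps25, a head protein that several viral messenger RNAs need for internal initiation, read 8.50, 8.51 and 8.15 in Axin2+/GFP+ and 10.03, 9.82 and 9.66 in Axin2-/GFP- cells, which is a log2 change of -1.45 (SE 0.19, limma adjusted p = 0.00176). Rps20, another head protein, read 9.74, 9.32 and 9.21 against 10.96, 10.85 and 10.80, a log2 change of -1.45 (SE 0.19, limma adjusted p = 0.00194). Rps4x, the X-linked form of a body protein, read 8.77, 8.64 and 8.84 against 10.26, 10.10 and 10.18. Its change of -1.43 (SE 0.16, limma adjusted p = 0.000951) was called lower in every one of 19 settings tried, as were those of Rpl7a, Rpl10a, Rpl13, Rpl19, Rpl23, Rpl27, Rps20 and Rps25. For these 3 small subunit genes the populations stood far apart relative to their own spread. Rps29, a head protein, read 10.70, 10.87 and 10.32 against 11.80, 11.82 and 11.81, a log2 change of -1.18 (SE 0.19, limma adjusted p = 0.00452).

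The acidic stalk of the large subunit, which recruits translation factors with GTPase activity, was lower in all 3 of its genes. Over the whole large subunit 84.8% of genes were called lower. Rplp0, which anchors the stalk, read 8.01, 8.45 and 8.77 against 9.54, 9.51 and 9.40, a log2 change of -1.07 (SE 0.22, limma adjusted p = 0.0125). Rplp1 read 10.23, 10.07 and 10.35 against 10.76, 10.84 and 10.82, a change of -0.59 (SE 0.16, limma adjusted p = 0.0429) that became 0.03 after cyclic loess. The feature of Rplp2, which lists no RefSeq messenger RNA, read 4.31, 4.03 and 3.92 against 5.04, 4.93 and 5.003, a change of -0.90 (SE 0.17, limma adjusted p = 0.0105). None of the 3 genes had overlapping populations, and Rplp1 moved least. By their other features Rplp1 changed by -0.82 and Rplp0 by -1.30.

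Rpl5, which carries the smallest ribosomal RNA into the large subunit and with Rpl11 restrains Mdm2, read 8.26, 7.99 and 8.18 against 9.11, 8.88 and 8.83, a log2 change of -0.80 (SE 0.17, limma adjusted p = 0.0168). Rpl11 had no feature of its own. Of 8 genes whose proteins line the rim of the exit tunnel, where new chains leave, 4 were measured and 3 were lower (Rpl19, Rpl23a and Rpl26), with a median over the 4 of -1.18. The other was Rpl22, an RNA-binding protein needed for T-cell development, at 3.61, 5.09 and 4.60 against 5.49, 5.12 and 5.10 (log2 change -0.80, limma adjusted p = 0.138). Its highest Axin2+/GFP+ sample nearly reached the lowest Axin2-/GFP- samples. Over the whole large subunit 84.8% of genes were called lower, with a median log2 change of -1.07, so the exit tunnel genes do not stand apart.

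Rpl38 and Rpl10, named for skeletal and late assembly roles, were among the 28 of 33 large subunit genes called lower. Rpl38, whose loss in the mouse alters the axial skeleton and which aids translation of Hox messenger RNAs, read 9.69, 9.24 and 9.17 against 10.44, 10.39 and 10.44, a log2 change of -1.06 (SE 0.19, limma adjusted p = 0.00738). Rpl10, which joins the large subunit late in its maturation, read 9.07, 8.16 and 8.46 against 10.04, 9.86 and 9.99, a change of -1.40 (SE 0.24, limma adjusted p = 0.0064). In both genes replicate 1 was the highest Axin2+/GFP+ sample, and it remained below all Axin2-/GFP- samples.

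In the small subunit, the head and the body were both lower. All 10 measured of 14 listed head genes were called, with a median log2 change of -1.21, and 8 of the 10 measured of 16 listed body and platform genes, with a median of -1.03. Over the whole small subunit 90% of genes were called, with a median of -1.12, and the difference between the regions was not tested. Rps6, the body protein phosphorylated by S6 kinases, read 9.60, 9.58 and 9.37 against 10.15, 10.02 and 10.09. Its log2 change of -0.57 (SE 0.16, limma adjusted p = 0.0463) was the smallest among called members and became 0.05 after cyclic loess. The other features of Rps6 changed by -0.84 to -0.63. Rps15, a head protein near the decoding centre, changed by -0.73 (SE 0.17, limma adjusted p = 0.0246), from 10.62, 10.63 and 10.81 to 10.17, 9.88 and 9.85. The 2 body genes not called were Rps2 and Rps14. Rps2 read 8.19, 8.72 and 8.76 against 9.12, 9.13 and 8.92, without overlap, a change of -0.50 (SE 0.20, limma adjusted p = 0.123) that turned to 0.12 after quantile normalization and 0.15 after cyclic loess. Rps14 changed by -0.87 (SE 0.27, limma adjusted p = 0.0625). The other feature of Rps14 changed by -1.10 (SE 0.22) and was called lower in a limma fit to every feature (adjusted p = 0.0144).

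Of 13 genes mutated in Diamond-Blackfan anaemia, 7 were measured and all 7 were lower, Rps7, Rps10, Rps19, Rps29, Rpl5, Rpl26 and Rpl27, with a median log2 change of -1.05. Of all members of the 2 subunits 86.8% were called lower, with a median of -1.07, so the count does not set these genes apart. Rps19, the most often mutated of them, read 6.77, 5.98 and 6.76 in Axin2+/GFP+ and 7.46, 7.38 and 7.57 in Axin2-/GFP- cells, a change of -0.97 (SE 0.24, limma adjusted p = 0.0276). Axin2+/GFP+ replicate 2 was the lowest sample of Rps19.

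The 5 large subunit genes that were not called lay mostly at low signal. Rpl12 was the single large subunit gene above 0, at 4.77, 4.59 and 3.48 against 4.17, 3.79 and 3.72, a log2 change of 0.38 (SE 0.33, limma adjusted p = 0.415). Its populations overlapped, its feature lists no RefSeq messenger RNA, and without Axin2+/GFP+ replicate 3 it was called higher at 0.78. Rpl29, whose loss reduces body size in mice, read 6.73, 6.02 and 6.79 against 6.73, 6.77 and 6.84, a change of -0.27 (SE 0.23, limma adjusted p = 0.413) that rested on Axin2+/GFP+ replicate 2 and was 0.12 and 0.33 after quantile normalization and cyclic loess. Rpl14 read 4.72, 5.10 and 4.92 against 5.39, 5.10 and 5.35, a change of -0.37 (SE 0.18, limma adjusted p = 0.184), and was 0.09 and 0.06 under those scalings. Rpl22 is described above. Rpl41, which encodes a very short basic peptide, read 10.47, 10.39 and 10.35 against 11.36, 10.82 and 10.96 without overlap, a change of -0.64 (SE 0.19, limma adjusted p = 0.0513).

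The 9 related symbols did not share one pattern. Rps27l, a paralogue of Rps27 that p53 induces, had the greatest fall of all members. It read 3.16, 4.10 and 3.17 in Axin2+/GFP+ and 5.60, 5.42 and 6.56 in Axin2-/GFP- cells, which is a log2 change of -2.38 (SE 0.35, limma adjusted p = 0.00341), a 5.21-fold lower level. Rps27 itself had no feature of its own. Rpl32l read 5.04, 4.81 and 4.55 against 5.91, 6.14 and 5.41, a change of -1.02 (SE 0.23, limma adjusted p = 0.0202). Rpl32 likewise had no feature of its own. Both genes had populations that did not overlap.

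The other 7 related symbols were not called. Rps4l read 3.40, 3.56 and 3.45 against 3.71, 3.89 and 3.79, without overlap, a log2 change of -0.33 (limma adjusted p = 0.181) beside -1.43 for Rps4x. Rpl10l, a paralogue of Rpl10 used in the testis, changed by 0.47 (limma adjusted p = 0.337) beside -1.40 for Rpl10. Rpl7l1, which takes part in making the large subunit, changed by -0.34 (limma adjusted p = 0.364) beside -1.30 for Rpl7. Rpl3l, the paralogue of striated muscle, changed by 0.11, Rpl39l, another testis paralogue, by 0.19, Rps23rg1, a retrogene of Rps23, by -0.08, and Rps19bp1, a nucleolar protein that binds Rps19, by -0.02. Rpl3l, Rpl10l, Rpl39l and Rps23rg1 had means under 3, where receptor genes also lie, and so give little information on a change. The direction of Rpl3l, Rpl39l and Rps19bp1 turned under quantile normalization and cyclic loess. The difference between a paralogue and its parent gene was not tested.

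Features of the same gene gave a second look at those members that had several. Of the 62 members 38 had more than 1 feature, with 152 features beside the brightest. Some repeat one another, since 12 features in 5 genes held the same 6 values as another feature of their gene, and Rps12 with 14 features had 8 distinct ones. Among the 140 other features left after removing repeats, 139 lay below 0 and 135 were called lower in a limma fit to every feature, where 11.8% of all features were. Their median log2 change was -1.26. In 37 of the 38 genes all features had the same sign, the exception being Rps4l at -0.33 and 0.35. The 3 features of Rpl41 hold identical values, so their agreement carries no information. The widest spread was that of Rps15, from -1.41 to -0.73, followed by Rps4l and by Rps2, whose other features changed by -0.95 and -1.13 and whose mean over features changed by -0.86 and was called. Ribosomal protein genes have many processed pseudogenes and features of one gene may match the same transcripts, so these features are not independent measurements.

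**Figure D2:**
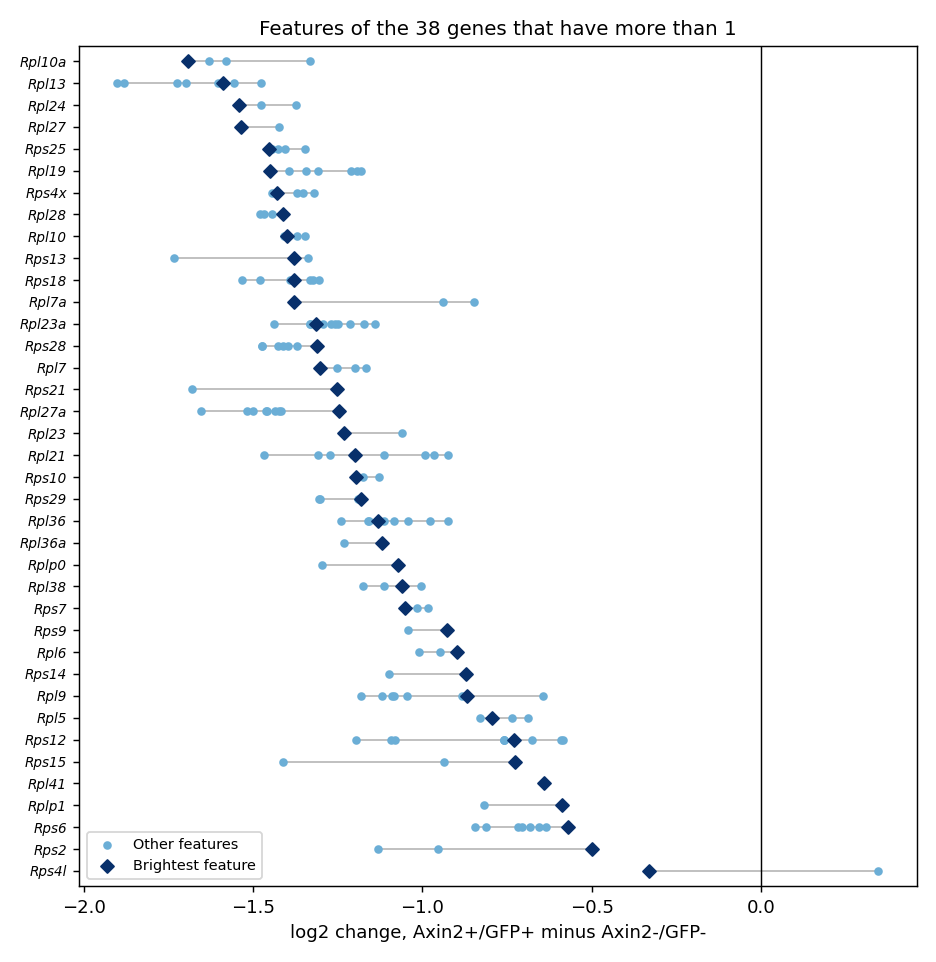
For the 38 members with more than 1 feature, each row shows the log2 change of the brightest feature (dark diamond) and of the other features (light points), joined by a line, and features with identical values coincide. All points lie below 0 except 1 feature of Rps4l at 0.35.

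Because the change varied with signal on these arrays, the members were set beside other bright genes. The upper quartile of the arrays was 3.72 to 3.76 in Axin2+/GFP+ and 3.97 to 3.999 in Axin2-/GFP- samples, and receptor genes at the floor had a median log2 change of 0.30. With a mean log2 value of 7 or more there were 44 members and 212 other genes. The other genes were not screened by function. They include the ribosomal proteins Fau and Rpsa and translation genes such as Eef1a1 and Tpt1, all called lower. They also include neutrophil markers, with a log2 change of up to 4.30 at means from 7 to 9. The part of these genes in the comparison was not tested. Of the members 41 were called lower and all 44 had populations without overlap, with a median log2 change of -1.19. Of the other genes 57 (26.9%) were called lower and 33 higher, 40.6% were lower without overlap, and their median change was -0.32. The calls on the members fell to 17 of 44 after quantile normalization, 10 after cyclic loess, 16 by the adjusted methods' test and 27 without Axin2-/GFP- replicate 1. The balance among the other genes turned, to 23 lower and 53 higher with quantile normalization and 18 lower and 70 higher with cyclic loess, and without Axin2-/GFP- replicate 1 it was 36 lower and 33 higher.

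The distance of the members from the other bright genes held in each range of signal that contained both in number. For means from 7 to 9 the median log2 change was -1.20 in 22 members, 21 of them lower, and -0.45 in 173 other genes, 47 of them lower. For means from 9 to 11 it was -1.12 in 21 members, 19 of them lower, and 0.16 in 29 other genes, 10 lower and 9 higher. Lower down the medians stood nearer to each other, in ranges that held few members and more of the related symbols. For means from 5 to 7 the medians were -0.89 in 5 members and -0.57 in 1458 other genes. For means from 3 to 5 they were -0.80 in 9 members and -0.19 in 7135. For means under 3 they were 0.15 in 4 members and 0.25 in 11071. The 4 members under 3 were all related symbols, as were Rps27l, Rps4l, Rpl7l1 and Rps19bp1 from 3 to 5. The subunit genes from 3 to 5 changed by 0.38 (Rpl12), -0.80 (Rpl22), -0.90 (Rplp2), -0.93 (Rpl30) and -1.05 (Rps15a). The medians in these ranges are thus not those of the subunit genes alone.

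**Figure D3:**
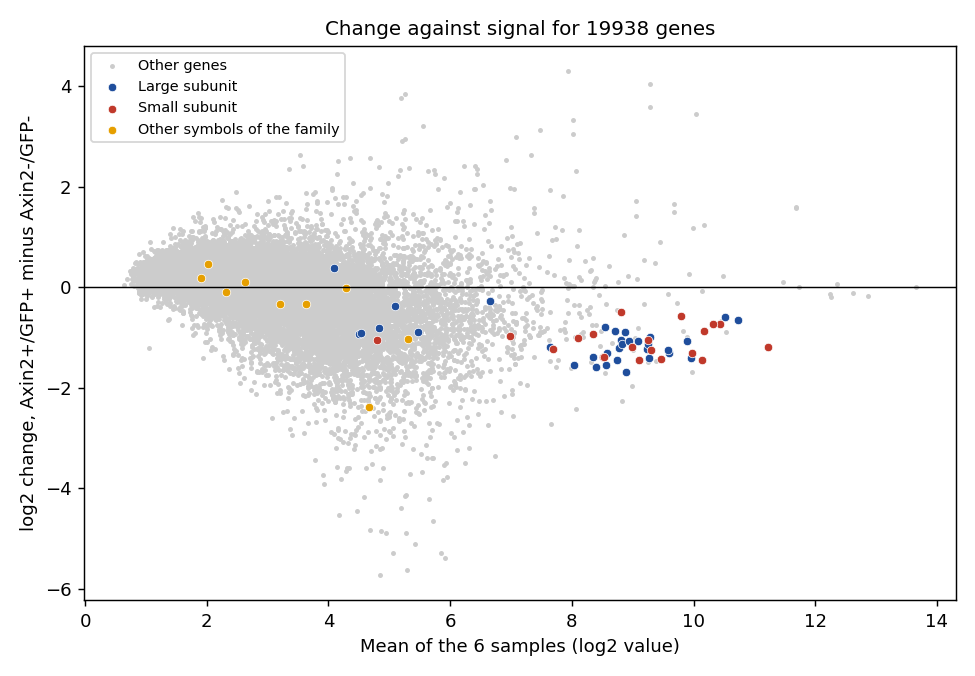
The log2 change of each of 19938 genes (vertical axis) is plotted against its mean log2 value over the 6 samples (horizontal axis), with the large subunit in blue, the small subunit in red, the related symbols in yellow and all other genes in grey. At means of 7 or more all 44 members lie below 0, while the 212 other genes lie on both sides with a median of -0.32.

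How far below 0 the members lay depended on how the arrays were brought to one scale. The median over the 44 bright members was -1.30 after median centring, -1.51 when arrays were centred on the receptor genes, -1.03 when they were centred on the other bright genes, -0.65 with quantile normalization and -0.55 with cyclic loess. The other bright genes moved alongside, to -0.43, -0.64, -0.15, 0.15 and 0.32. The median of all genes, 0.14 as deposited, became 0.03, -0.18, 0.31, 0.06 and 0.01 under the same scalings. The difference of the 2 medians, members minus other bright genes, was -0.87 as deposited. Centring shifts all genes of an array alike and so cannot move this difference, which makes the 3 centrings no check of it. It was -0.80 after quantile normalization and -0.88 after cyclic loess, and between -0.93 and -0.85 when any 1 sample was left out. Over all genes the calls split into 926 higher and 2265 lower as deposited, 459 and 2719 after median centring, 210 and 3980 when centred on receptor genes, and 1877 and 1726 when centred on the other bright genes.

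**Figure D4:**
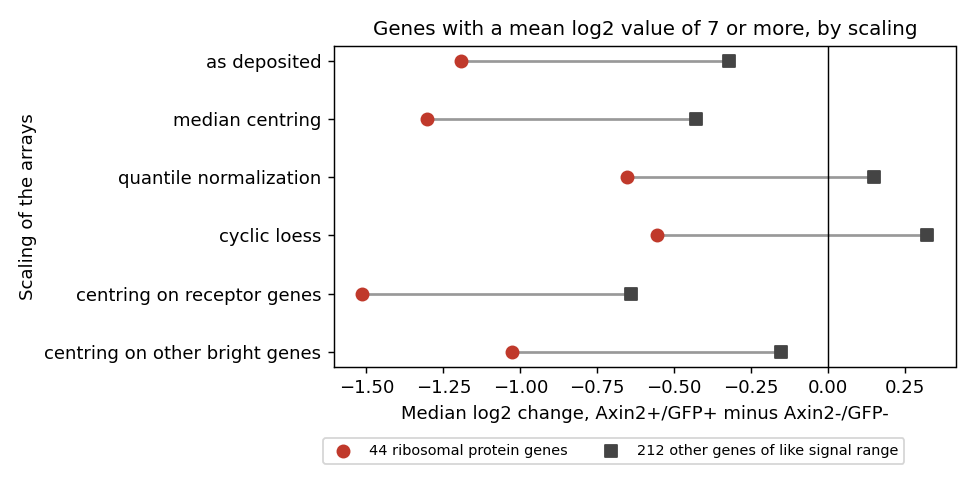
Median log2 change (horizontal axis) of the 44 ribosomal protein genes with a mean log2 value of 7 or more (red circles) and of the 212 other genes of that range (dark squares), joined by a line for each of 6 scalings of the arrays. The line is 0.87 long as deposited, 0.80 after quantile normalization and 0.88 after cyclic loess, and its length cannot change under the 3 centrings.

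Other genes of the protein synthesis machinery were taken from lists. As a background for their counts, limma called 11.4% of all genes lower, 20.6% of genes outside the family with means from 3 to 5 and 36% of those with means from 5 to 7. Of ribosomal proteins whose symbols lie outside the naming rule, 2 of 5 were measured and both were lower. Fau, which is made as a fusion of a ubiquitin-like protein and a small subunit protein, read 8.77, 8.64 and 8.61 against 9.48, 9.50 and 9.50, a log2 change of -0.82 (SE 0.16, limma adjusted p = 0.0102). Rpsa, also known as the laminin receptor, changed by -0.66 (SE 0.19, limma adjusted p = 0.0462). Of 32 measured genes on a list of translation factors and TOP messenger RNAs, 24 (75%) were lower and 0 higher, with a median of -0.99. After quantile normalization 11 were lower with a median of -0.51, after cyclic loess 8 with a median of -0.46, and 6 by the adjusted methods' test. By limma without adjustment and by the methods' test 0 of them were higher too. Their smallest p-values were those of the initiation factor 3 subunits Eif3f (-1.70), Eif3d (-1.60) and Eif3m (-2.91), and the elongation factors Eef1a1 (-0.996) and Eef2 (-1.05) were lower.

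Of 59 measured ribosome assembly genes 23 (39.0%) were lower and 0 higher, with a median log2 change of -0.74. There were 14 after quantile normalization and 5 by the adjusted methods' test. They included Gnl3, the nucleolar GTPase nucleostemin (-2.28), Wdr43 (-1.73) and Emg1, a methyltransferase of small subunit RNA (-1.85). Of 18 genes of Myc and mTOR control 5 (27.8%) were lower and 0 higher, with a median of -0.42, a share between those of the other genes with means from 3 to 5 and from 5 to 7. They fell to 2 under quantile normalization and under cyclic loess and to 1 by the adjusted methods' test. Called lower were the kinases Mtor (-1.40) and Akt1 (-1.39) and the RNA polymerase III repressor Maf1 (-1.05). Myc did not pass, at -1.49 (limma adjusted p = 0.0650). Neither list had a gene higher at an unadjusted p under 0.05 in limma or by the methods' test.

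The ribosome of mitochondria, which is built from a separate set of nuclear genes, had a smaller median change. Of 77 measured genes for its proteins 13 (16.9%) were lower and 0 higher, with a median log2 change of -0.42, a share below that of the other genes with means from 3 to 5. After quantile normalization 7 were lower, and by the adjusted methods' test 0. The smallest p-values were those of Mrpl42 (-2.40), Mrpl37 (-1.50) and Mrps18a (-1.98). At an unadjusted p under 0.05 limma placed 28 lower and 0 higher, and the methods' test 19 lower and 1 higher. These genes had means between 2.16 and 6.06, a range of signal that held few cytosolic members, and the difference between the families was not tested. Without Axin2-/GFP- replicate 1, 16 translation genes, 15 assembly genes, 3 control genes and 6 mitochondrial genes were called lower, where 6.9% of all genes were. Without Axin2-/GFP- replicate 2 the last 2 counts were 2 and 8 (7.3% of all genes), and without replicate 3 they were 3 and 7 (7.04%). The control genes called were also 3 without Axin2+/GFP+ replicate 1 (10.1%).

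**Figure D5:**
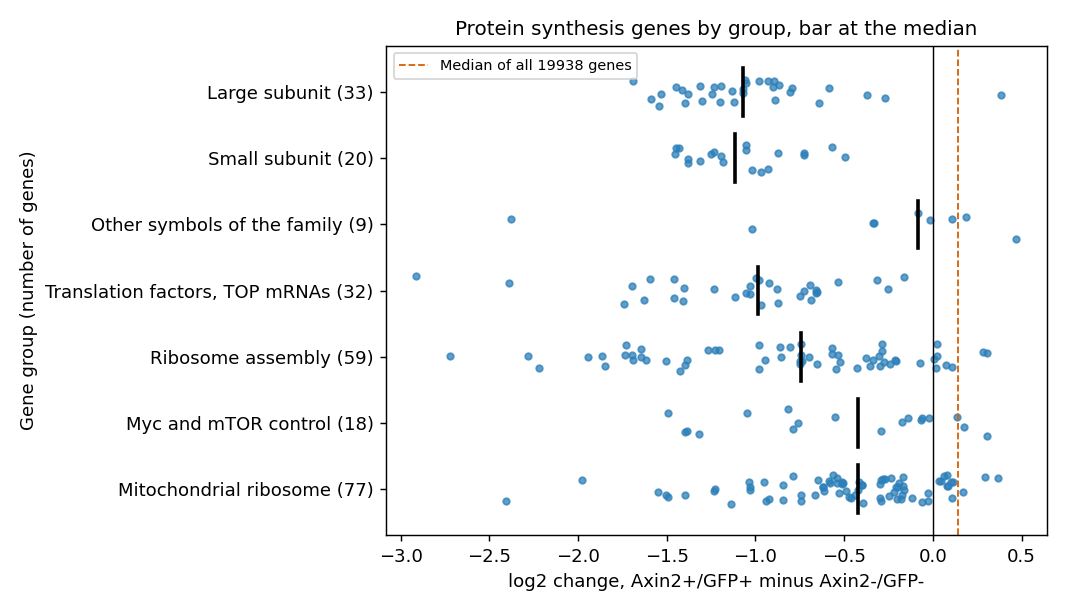
Each point is the log2 change of 1 gene (horizontal axis), in rows for the subunits, the related symbols and 4 lists of protein synthesis genes, with a black bar at the median of each row and a dashed line at the median of all genes, 0.14. The bars lie at -1.07, -1.12, -0.08, -0.99, -0.74, -0.42 and -0.42 from top to bottom.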

How the data were processed

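RNA of 3 Axin2+/GFP+ and 3 Axin2-/GFP- samples was measured on Affymetrix whole-transcript arrays. The authors deposited log2 values per feature, and RMA and R 3.2.1 are listed in the submitters' processing notes. How background was treated, at which probe set level, and with which annotation is not given in the sources used here. No further step was applied to the deposited values before testing, and 0 columns were unmatched to a sample. Their distributions differed between populations, so quantile-based scalings change the values, and the log2 scale was read from their range. RMA also compresses differences near background, which understates changes of dim genes.

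Of 35557 features, 21789 carry 1 symbol, 1621 several and 12147 none here. All 62 members were matched to RefSeq by gene identifier, with 0 names changed. Groups and replicate numbers came from the labels, which call the samples biological replicates. Whether a pool of mice was shared between populations is not stated, the p-values rest on the spread among these arrays, and their small number limits precision. The test was limma 3.58.1 under R 4.3.3, a linear model with empirical Bayes moderation and no covariate. The p-values were adjusted by Benjamini and Hochberg's procedure over 19938 genes and called at 0.05. The procedure was tested on simulated data, in which genes varied independently and the populations did not differ in scaling. That simulation therefore cannot show how the scaling of the real arrays affects the calls. The summed level of a marker list is the log2 of its summed linear values.

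Members and lists were chosen with earlier results of these data known, and support nothing by their choice. Genes named were those of the stalk, Rpl5, Rps6, Rps19, Rpl38, Rpl24 and Rpl10, the 3 lowest and 3 highest changes in each subunit, all related symbols, and up to 3 genes of each list by p. Rps29, Rpl22, Rpl41, Rps14, Col1a1, Prrx1, Twist1, Pdgfra, Eef1a1, Eef2, Myc and other genes named in passing were added after their values were seen. Tried besides were a trended prior in limma, the plain two-sided test for equal variances named in the study's methods (the methods' test), array weights, a replicate block, median centring, quantile normalization, cyclic loess, centring on receptor genes, a filter at a mean of 4, the mean of features, limma on all features at once, and omission of each sample in turn. Centring on the other bright genes was added after the data were seen. Same-numbered samples did not deviate together (correlations of 0.03, 0.01 and 0.05), so the numbers were not taken as pairs.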

Additional observations from a re-analysis of the deposited data

How the results depend on the processing

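Under the alternatives 409 of 498 recomputed values for the 28 named members kept their direction and their side of the threshold, 61 fell short of it, 5 passed it and 23 changed sign, and 50 of 62 members stayed below 0 in every setting in which they were tested. The cause of these differences was not tested. Of the members 48 were called as deposited, 17 by the methods' test, 18 after quantile normalization and 11 after cyclic loess, and 29 to 45 when 1 sample was left out, with 29 without Axin2-/GFP- replicate 1. The replicate block treats same-numbered samples as pairs, which is not known to hold. It gave 46, losing Rplp1, Rps6 and Rps15a and gaining Rps14, and 2844 over all genes. The median of the large subunit was -1.18 after median centring, -1.39 when centred on receptor genes, -0.90 when centred on other bright genes, -0.53 after quantile normalization and -0.49 after cyclic loess, and -1.11 to -1.07 when 1 sample was left out. That of the small subunit was -1.23, -1.44, -0.95, -0.63 and -0.57, and -1.19 to -1.04. Over all genes 3191 calls became 2034 after quantile normalization, 729 by the methods' test, 1831 after the filter on dim genes, which tests fewer genes, and 1642 to 2871 when 1 sample was left out, with 1664, 1716 and 1642 without Axin2-/GFP- replicates 1, 2 and 3.

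Signs changed after quantile normalization and cyclic loess in Rpl14 (0.090, 0.061), Rpl29 (0.12, 0.33), Rps2 (0.12, 0.15), Rpl39l (-0.030, -0.068), Rpl3l (-0.013, -0.086) and Rps19bp1 (0.34, 0.30), and after cyclic loess in Rplp1 (0.029) and Rps6 (0.055). Centring on receptor genes gave -0.13 for Rpl39l and -0.21 for Rpl3l, and median centring -0.0014 for Rpl3l. Centring on other bright genes gave 0.15 for Rps19bp1 and 0.084 for Rps23rg1, and the mean of features 0.0087 for Rps4l. With 1 sample left out, Rps19bp1 ranged from -0.20 to 0.15 and Rps23rg1 from -0.28 to 0.081, both highest without Axin2-/GFP- replicate 1. Values at the floor of the receptor genes cannot show a fall.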

Other observations

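A further 239 features carry several symbols, 1 or more of them of the family, and were in no comparison above. Of these 236 lay below 0 and 196 (82.0%) were called lower in a limma fit to all 35557 features, of which 6.67% were called lower, and 0 were called higher. Their median log2 change was -1.20, with quartiles of -1.38 and -1.06, and they can match more than 1 gene. The 2 features of pseudogene symbols had a median of -0.41 and neither was called.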
